A study of Saccharomyces cerevisiae with 26 samples.

Results

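The 10 genes listed here belong to gluconeogenesis and the glyoxylate cycle. They were followed across 26 yeast expression arrays, out of 5445 genes of Saccharomyces cerevisiae that could be tested. They were chosen by symbol, for their place in the pathway. FBP1 (YLR377C) and PCK1 (YKR097W) encode the gluconeogenic enzymes. ICL1 (YER065C), MLS1 (YNL117W) and MDH2 (YOL126C) encode enzymes of the glyoxylate cycle. ACS1 (YAL054C) and ADH2 (YMR303C) bring acetate and ethanol into the pathway, SFC1 (YJR095W) and JEN1 (YKL217W) encode carriers, and CAT8 (YMR280C) encodes a transcription factor that switches the pathway on. All 10 were measured, each by 1 probe set that matches no other yeast gene by its identifier.

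Gluconeogenesis builds glucose phosphates from small acids, running glycolysis backwards with its own enzymes at the steps that cannot be reversed. The glyoxylate cycle feeds it by turning acetyl-CoA, made from acetate, ethanol or fatty acids, into malate without losing carbon as carbon dioxide. In yeast, glucose shuts these genes off through the repressor Mig1, and when glucose runs out the kinase Snf1 restores their transcription through the activators Cat8, Sip4 and Adr1.

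All arrays hold RNA of haploid S288C yeast, a laboratory strain, here of mating type alpha, grown at 32.5 °C and pH 5.5. Cells enclosed in 3 mm calcium alginate beads were sampled with 4 arrays a day on days 1, 3 and 5 and 3 arrays a day on days 10 and 17. The 100 mL of beads were packed in a reactor of 300 mL through which medium with 100 g/L glucose was pumped at 6 L/h, and spent medium was exchanged as its glucose ran low. Day 0 (2 arrays) is placed before immobilization by the sample titles and just after it by the source names, and its protocol is that of the beads. Free cells came from an anaerobic batch culture of 200 mL started with 10 g/L glucose, taken at 72 h in stationary phase (2 arrays) or at 12 h in logarithmic growth, called log phase here (2 arrays). The remaining 2 arrays came from an anaerobic chemostat limited by 1 g/L glucose and diluted at 0.15 per h, at steady state after 72 h. For the bead reactor it is not stated if oxygen was kept out.

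The deposited values are ratios of a probe set to its own median over the 26 arrays. A log2 ratio of 0 therefore marks a gene's middle array and not a level, and levels of different genes cannot be compared. Differences are log2 differences between group means ± SE from limma, fitted to all tested genes. A gene was called when its Benjamini-Hochberg adjusted p was under 0.05 and the groups differed by at least 2-fold. RNA was extracted by one published method from free cells and by another from bead and day 0 samples, so culture and extraction cannot be told apart in any comparison of the 2 kinds. Whether the arrays of 1 group stem from different cultures is not stated, and the p-values then reflect only the spread between arrays, which may be technical. In RNA of a whole population, more transcript per cell and more cells that express a gene cannot be told apart. Probe sets for poly-A control transcripts, which are added to samples, stood at log2 ratios of 2.27 and 2.83 on the stationary-phase arrays and between -2.82 and 1.11 on the other 24 arrays. Their part in the differences was not tested.

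**Figure D1:**
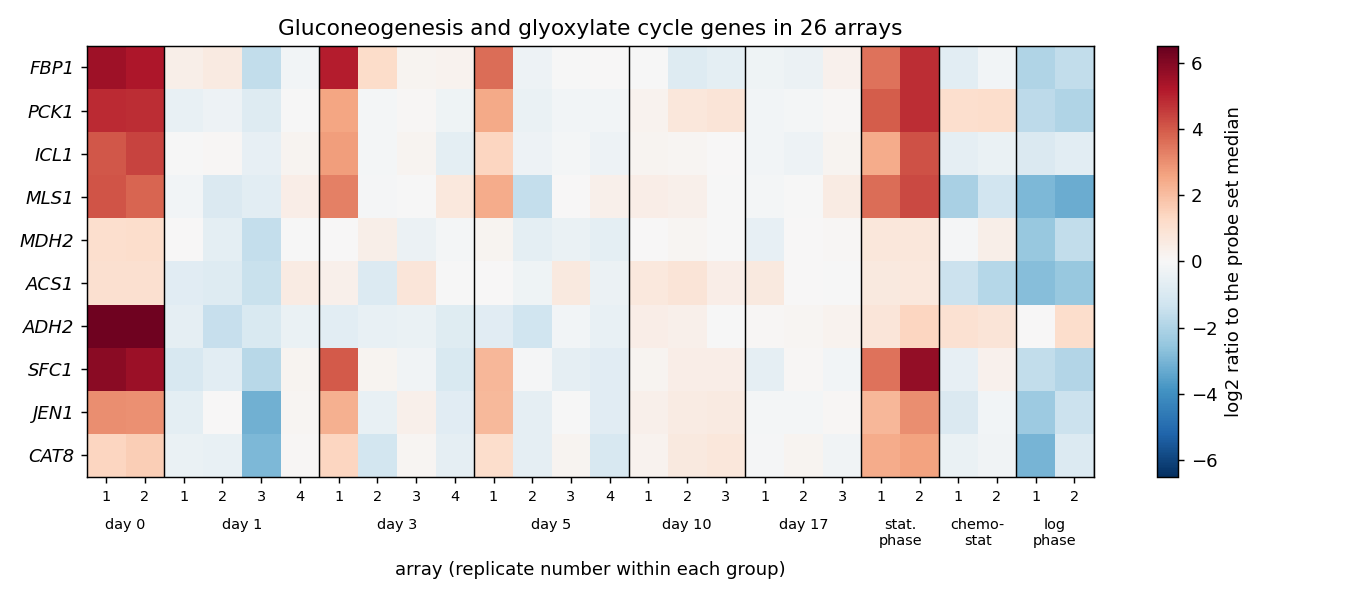
Log2 ratio of each of the 10 genes (rows) on each of the 26 arrays (columns, numbered by replicate within a group); red is above and blue below the gene's own median over all arrays. The 2 day 0 arrays and the 2 stationary-phase arrays are red for all 10 genes, the 2 log-phase arrays are blue for all genes but ADH2, and among the beads day 3 replicate 1 and day 5 replicate 1 stand apart from the other arrays.

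Stationary-phase cells had higher transcript levels than log-phase cells for 9 of the 10 genes, by 6.90-fold to 132-fold. ADH2 was the gene not called. Of all tested genes 22.8% were called higher and 21.7% lower in this comparison. The median log2 difference of the 10 genes was 4.49, against 0.04 over all tested genes. Arrays of the 2 groups lay apart for 9 of the 10 genes, which says little with 2 arrays a side. In either direction they lay apart for 9 of 9 reversible glycolytic enzymes, 13 of 13 glyoxylate partners and 21 of 24 regulators. This was not counted over all tested genes.

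FBP1 encodes fructose bisphosphatase, the last enzyme particular to gluconeogenesis, and PCK1 encodes phosphoenolpyruvate carboxykinase, the first. FBP1 had log2 ratios of 3.51 and 4.79 in stationary phase, against -1.93 and -1.58 in log phase. PCK1 had 3.94 and 4.78 in stationary phase, against -1.69 and -1.93 in log phase. For both genes the arrays of the groups lay far apart. FBP1 was 60.0-fold higher in stationary phase (log2 difference 5.91 ± 1.23, adjusted p = 0.000515) and PCK1 72.3-fold (6.18 ± 0.77, adjusted p = 3.04e-06).

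Isocitrate lyase, encoded by ICL1, splits isocitrate to glyoxylate and succinate, malate synthase (MLS1) joins glyoxylate to acetyl-CoA, and the cytosolic malate dehydrogenase (MDH2) oxidizes the malate. ICL1 had log2 ratios of 2.41 and 4.15 in stationary phase, against -0.95 and -0.67 in log phase. MLS1 had 3.62 and 4.30 in stationary phase, against -2.94 and -3.24 in log phase. MDH2 stood at 0.75 on both stationary-phase arrays, against -2.48 and -1.60 in log phase. In each case both stationary-phase arrays were above both log-phase arrays. The rise of MLS1 was 132-fold (7.05 ± 0.93, adjusted p = 5.75e-06), that of ICL1 17.0-fold (4.09 ± 0.74, adjusted p = 0.000143) and that of MDH2 6.90-fold (2.79 ± 0.41, adjusted p = 1.79e-05).

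ACS1 encodes an acetyl-CoA synthetase that is repressed by glucose, and ADH2 the alcohol dehydrogenase that oxidizes ethanol. ACS1 had log2 ratios of 0.65 and 0.68 in stationary phase, against -2.78 and -2.48 in log phase. It rose 9.80-fold (3.29 ± 0.50, adjusted p = 2.56e-05). ADH2 had 0.81 and 1.38 in stationary phase, against 0.01 and 1.15 in log phase. Its groups overlapped, and its difference of 0.51 ± 0.37 (95% confidence interval -0.25 to 1.28, adjusted p = 0.242) was not called. The log-phase arrays of ADH2 differed from each other by more than the group means did. Without log phase replicate 2 the ADH2 difference was 1.08 and was called (adjusted p = 0.0376), so that all 10 genes were then called.

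SFC1 encodes the carrier that exchanges cytosolic succinate for mitochondrial fumarate, JEN1 the plasma membrane permease for lactate and pyruvate. SFC1 had log2 ratios of 3.53 and 5.73 in stationary phase, against -1.59 and -1.90 in log phase. JEN1 had 2.18 and 3.02 in stationary phase, against -2.38 and -1.42 in log phase. CAT8 had 2.40 and 2.64 in stationary phase, against -3.00 and -0.91 in log phase. All 3 genes were above the log-phase arrays on both stationary-phase arrays. SFC1 rose 83.0-fold (6.38 ± 1.11, adjusted p = 0.000101), JEN1 22.6-fold (4.50 ± 0.96, adjusted p = 0.000675) and CAT8 22.2-fold (4.47 ± 0.84, adjusted p = 0.00021). Between the 2 stationary-phase arrays, replicate 2 had the higher value for every gene but MDH2, and SFC1 differed between them by the most. The sizes of some rises rested on 1 array. Without stationary phase replicate 2 or replicate 1 the SFC1 difference was 5.27 or 7.48, that of ICL1 3.22 or 4.96 and that of FBP1 5.27 or 6.55. The CAT8 difference was 3.43 without log phase replicate 1 and 5.52 without log phase replicate 2, and all 4 genes were called each time. When quantile normalization was repeated over the arrays, ACS1 and JEN1 were not called (adjusted p = 0.0602 and 0.0553).

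Close relatives of the listed enzymes were not called higher. ADH1, which makes ethanol during fermentation, differed by -0.32 between stationary and log phase and was not called. ACS2, the acetyl-CoA synthetase used on glucose, was lower in stationary phase (-2.61 ± 0.42, adjusted p = 4.29e-05), and the mitochondrial MDH1 was not called. The peroxisomal MDH3 differed by 1.00 and was not called. Among the regulators SIP4, an activator of the same promoters, was higher (4.04 ± 0.56, adjusted p = 1.08e-05), as was ADR1 (3.74 ± 0.68, adjusted p = 0.000157). HXK2, the hexokinase that also takes part in glucose repression, was lower (-3.15 ± 0.50, adjusted p = 4.37e-05).

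Other lists drawn up around the pathway, which share some genes among themselves, were set beside it. All 5 genes of the carnitine shuttle, which carries acetyl groups between compartments, rose, the highest being CRC1 (6.42 ± 0.97) and YAT1 (5.47 ± 1.12). Of 21 other glucose-repressed genes used on poor carbon sources 17 rose and 0 fell, led by POT1 (7.80 ± 0.85) and CTA1 (7.20 ± 0.85) of the peroxisome. Of 10 genes of the GID ubiquitin ligase and of FBPase degradation, by which yeast destroys gluconeogenic enzymes when glucose returns, 8 rose and 0 fell, with GID8 at 3.42 ± 0.34. Of 13 partners around glyoxylate and the dicarboxylic acids 4 rose and 3 fell, and IDP2, a cytosolic isocitrate dehydrogenase, was at 3.65 ± 0.68. Of 15 genes of acetate and ethanol entry 5 rose and 4 fell, and the acetate transporter gene ADY2 was at 6.63 ± 1.13. Of 24 regulators of glucose derepression 8 rose and 3 fell. Another list held 10 genes of the one-way glycolytic steps and of fructose 2,6-bisphosphate, of which 1 rose and 3 fell. The gene that rose was FBP26 (2.78 ± 0.46), which is on the list for fructose 2,6-bisphosphate and not for a glycolytic step. Of 9 reversible glycolytic enzymes 0 rose and 2 fell, PGK1 at -1.74 ± 0.32 and ENO1 at -1.35 ± 0.27.

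**Figure D2:**
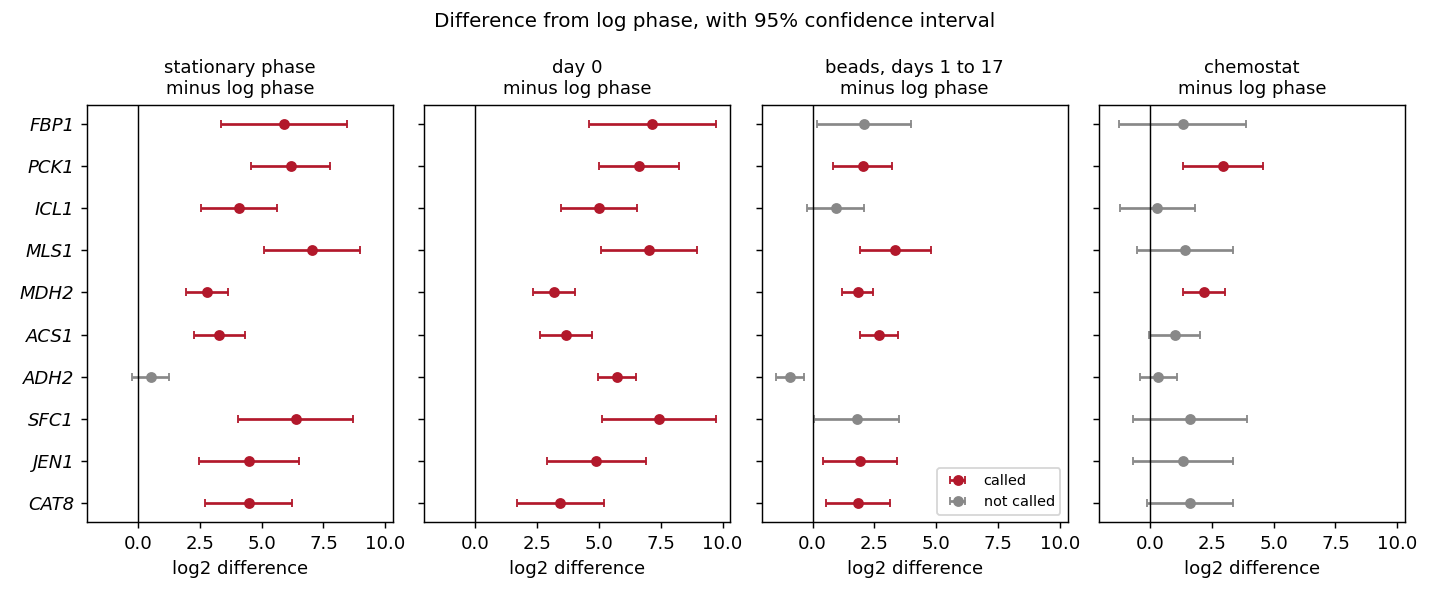
Log2 difference from log phase of each gene, as points with 95% confidence intervals from limma, for stationary phase, day 0, the mean of the 5 bead days and the chemostat; red points were called and grey points were not. Intervals of 9 genes in stationary phase and of all 10 at day 0 lie right of 0, while in the chemostat only PCK1 and MDH2 were called. The 4 panels share the same 2 log-phase arrays.

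Chemostat cells, which grow slowly on scarce glucose, differed from log-phase cells in 2 of the 10 genes, both higher. Among all tested genes 1.76% were called higher and 0.514% lower. PCK1 had log2 ratios of 1.11 and 1.16 in the chemostat, against -1.69 and -1.93 in log phase, and was 7.74-fold higher (2.95 ± 0.77, adjusted p = 0.0447). MDH2 had -0.05 and 0.36 in the chemostat, against -2.48 and -1.60 in log phase, and was 4.57-fold higher (2.19 ± 0.41, adjusted p = 0.0034). The call of PCK1 lies close to the threshold. It was lost when either log-phase or either chemostat array was left out, with adjusted p of 0.192 to 0.308, and in all in 15 of the 26 fits that left out 1 array. The MDH2 call was lost without log phase replicate 1 (adjusted p = 0.121) or chemostat replicate 2 (adjusted p = 0.0925). With repeated quantile normalization neither gene was called (1.95 and 1.28, adjusted p = 1 and 0.637), and with array weights MLS1, ACS1 and CAT8 were called too.

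The other 8 genes were not called. Every one had a positive difference, and both chemostat arrays lay above both log-phase arrays for 9 of the 10 genes, all but ADH2. With 2 arrays a side this is common. Arrays also lay apart, in either direction, for 5 of 5 carnitine shuttle genes, 19 of 24 regulators and 4 of 9 reversible glycolytic enzymes. It was not counted over all tested genes. MLS1 had log2 ratios of -2.10 and -1.23 in the chemostat, against -2.94 and -3.24 in log phase (difference 1.43, 95% confidence interval -0.51 to 3.36, adjusted p = 0.647). ACS1 had -1.39 and -1.87 in the chemostat, against -2.78 and -2.48 in log phase (1.00, interval -0.03 to 2.04, adjusted p = 0.464). CAT8 had -0.45 and -0.21 in the chemostat, against -3.00 and -0.91 in log phase (1.63, interval -0.12 to 3.38, adjusted p = 0.488). These intervals hold differences from none to more than the fold minimum. FBP1, SFC1 and JEN1 had differences of 1.32, 1.63 and 1.34 with adjusted p of 0.815, 0.667 and 0.693. ICL1 had the smallest difference at 0.31 (adjusted p = 0.964) and ADH2 stood at 0.35 (adjusted p = 0.865), its chemostat arrays of 0.99 and 0.86 falling between its log-phase arrays.

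Set against the chemostat, stationary-phase cells were higher in 8 of the 10 genes, with a median difference of 3.19. Of all tested genes 17.4% were called higher and 17.4% lower. MLS1 rose 49.2-fold (5.62 ± 0.93, adjusted p = 0.000138), SFC1 26.9-fold (4.75 ± 1.11, adjusted p = 0.00223) and FBP1 23.9-fold (4.58 ± 1.23, adjusted p = 0.00574). ICL1 rose 13.7-fold (3.78 ± 0.74, adjusted p = 0.000548), PCK1 9.34-fold (3.22 ± 0.77, adjusted p = 0.00257) and JEN1 8.92-fold (3.16 ± 0.96, adjusted p = 0.0126). CAT8 rose 7.21-fold (2.85 ± 0.84, adjusted p = 0.0103) and ACS1 4.90-fold (2.29 ± 0.50, adjusted p = 0.00127). MDH2 (0.60 ± 0.41, adjusted p = 0.244) and ADH2 (0.17, interval -0.59 to 0.93, adjusted p = 0.731) were not called. FBP1, JEN1 and CAT8 lost the call without stationary phase replicate 2, and JEN1 and CAT8 also without chemostat replicate 1, with adjusted p of 0.055 to 0.0901. Without stationary phase replicate 2 or replicate 1 the differences were 3.65 or 5.85 for SFC1, 3.94 or 5.22 for FBP1 and 2.91 or 4.65 for ICL1. Repeated quantile normalization left ICL1 and MLS1 called and put FBP1, PCK1, ACS1, SFC1, JEN1 and CAT8 at adjusted p of 0.0558 to 0.149.

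The 2 day 0 arrays were higher than log phase for all 10 genes. In the same comparison 18.6% of all tested genes were called higher and 17.8% lower, and the median difference of the 10 was 5.37. SFC1, at log2 ratios of 5.85 and 5.54 on day 0, differed from log phase by 7.44 ± 1.11 (173-fold, adjusted p = 2.27e-05). FBP1, at 5.54 and 5.27, differed by 7.16 ± 1.23 (143-fold, adjusted p = 0.000102), and MLS1, at 4.08 and 3.80, by 7.03 ± 0.93 (131-fold, adjusted p = 6.26e-06). A carrier, a gluconeogenic and a glyoxylate cycle gene thus held the 3 largest differences.

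On day 0 PCK1, at log2 ratios of 4.83 and 4.79, differed from log phase by 6.62 ± 0.77 (98.4-fold, adjusted p = 1.63e-06), and ICL1, at 4.03 and 4.38, by 5.01 ± 0.74 (32.3-fold, adjusted p = 1.91e-05). JEN1, at 3.03 and 2.98, differed by 4.90 ± 0.96 (29.9-fold, adjusted p = 0.000369), and CAT8, at 1.39 and 1.58, by 3.44 ± 0.84 (10.9-fold, adjusted p = 0.00238). ACS1, at 1.05 and 1.04, differed by 3.67 ± 0.50 (12.8-fold, adjusted p = 8.27e-06), and MDH2, at 1.11 and 1.16, by 3.17 ± 0.41 (9.02-fold, adjusted p = 4.87e-06). Day 0 arrays agreed closely: the median SD of the 10 genes was 0.0858 on day 0, against 0.233 in log phase. Without log phase replicate 1 the CAT8 difference was 2.40 and was not called (adjusted p = 0.0692), without log phase replicate 2 it was 4.49, and with repeated quantile normalization it was 2.21 (adjusted p = 0.084).

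ADH2 set day 0 apart from stationary phase. It had log2 ratios of 6.32 and 6.30 on day 0, against 0.81 and 1.38 in stationary phase and 0.01 and 1.15 in log phase. Both day 0 arrays were the highest of all 26 for this gene. The difference from stationary phase was 5.22 ± 0.37 (37.2-fold, adjusted p = 1.53e-08) and that from log phase 5.73 ± 0.37 (53.1-fold, adjusted p = 4.97e-10). ADH1, the fermentative isozyme, averaged -0.25 ± 0.18 on day 0, against -0.17 ± 0.01 in stationary phase and 0.14 ± 0.14 in log phase (SD, n = 2 each).

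Between day 0 and stationary phase ADH2 was the only listed gene called. Of all tested genes 8.48% were called higher and 8.98% lower, and the median difference of the 10 genes was 0.42, against -0.07 over all tested genes. FBP1 differed by 1.25 (interval -1.30 to 3.81, adjusted p = 0.498), SFC1 by 1.06 (adjusted p = 0.528) and ICL1 by 0.93 (adjusted p = 0.394). PCK1 differed by 0.44 (adjusted p = 0.721), JEN1 by 0.40 (adjusted p = 0.807), MDH2 by 0.39 (adjusted p = 0.535), ACS1 by 0.38 (adjusted p = 0.624) and MLS1 by -0.02 (adjusted p = 0.991). CAT8 had the lowest value, -1.03 (interval -2.78 to 0.72, adjusted p = 0.405), with 1.39 and 1.58 on day 0, against 2.40 and 2.64 in stationary phase. Its arrays did not overlap between the groups, and the same holds for FBP1, PCK1, MDH2, ACS1 and ADH2, all higher on day 0. Arrays also lay apart, in either direction, for 16 of 24 regulators, 15 of 21 other glucose-repressed genes and 5 of 9 reversible glycolytic enzymes. It was not counted over all tested genes. When only these 2 groups were fitted, FBP1 (adjusted p = 0.0468) and CAT8 (adjusted p = 0.0106) were called too. SIP4, the relative of CAT8, was higher on day 0 (2.29 ± 0.56, adjusted p = 0.00606), as was ICL2 (1.51 ± 0.37, adjusted p = 0.00534), a mitochondrial protein related to Icl1.

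By day 1 in the beads all 10 genes were lower than on day 0, and for each gene all 4 day 1 arrays lay below both day 0 arrays. Such separation, in either direction, also held for 20 of 21 other glucose-repressed genes and 8 of 9 reversible glycolytic enzymes. It held for 9 of 24 regulators and 4 of 10 genes of the GID list, and was not counted over all tested genes. Calls over all tested genes came to 9.97% higher and 10.3% lower in this comparison. ADH2 had log2 ratios of -0.61, -1.52, -0.97 and -0.44 on day 1, against 6.32 and 6.30 on day 0. It fell 146-fold (-7.19 ± 0.32, adjusted p = 7.82e-13), the largest fall of the 10. SFC1 fell 92.5-fold (-6.53 ± 0.96, adjusted p = 4.07e-05), with -1.03, -0.69, -1.83 and 0.20 on day 1, against 5.85 and 5.54 on day 0. FBP1 fell 48.7-fold (-5.61 ± 1.06, adjusted p = 0.000491), with 0.37, 0.60, -1.61 and -0.17 on day 1, against 5.54 and 5.27 on day 0.

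The remaining falls were 37.6-fold for PCK1 (-5.23 ± 0.67, adjusted p = 7.51e-06), 19.6-fold for ICL1 (-4.29 ± 0.64, adjusted p = 4.48e-05) and 19.5-fold for MLS1 (-4.29 ± 0.81, adjusted p = 0.000443). JEN1 fell 14.9-fold (-3.90 ± 0.84, adjusted p = 0.00142) and CAT8 5.39-fold (-2.43 ± 0.73, adjusted p = 0.0157). MDH2 fell 3.18-fold (-1.67 ± 0.35, adjusted p = 0.00129) and ACS1 3.17-fold (-1.67 ± 0.43, adjusted p = 0.00624). Without day 1 replicate 3 the differences were -3.16 for JEN1 and -1.77 for CAT8, and both were still called. ACS1 and CAT8 lost the call without either day 0 array, with adjusted p of 0.0516 to 0.118. Both also lost it with repeated quantile normalization (adjusted p = 0.174 and 0.122) and, together with MDH2, when only these groups were fitted (adjusted p of 0.0691 to 0.0939). In the wider lists all 5 carnitine shuttle genes fell, as did 19 of 21 other glucose-repressed genes, with 0 higher. ADY2 stood at -7.03 ± 0.97 and YAT1 at -6.03 ± 0.97. Of the regulators 2 rose and 4 fell, SIP4 at -4.57 ± 0.49 and ADR1 at -1.96 ± 0.59, while ACS2 was higher on day 1 (1.46 ± 0.36, adjusted p = 0.00421).

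**Figure D3:**
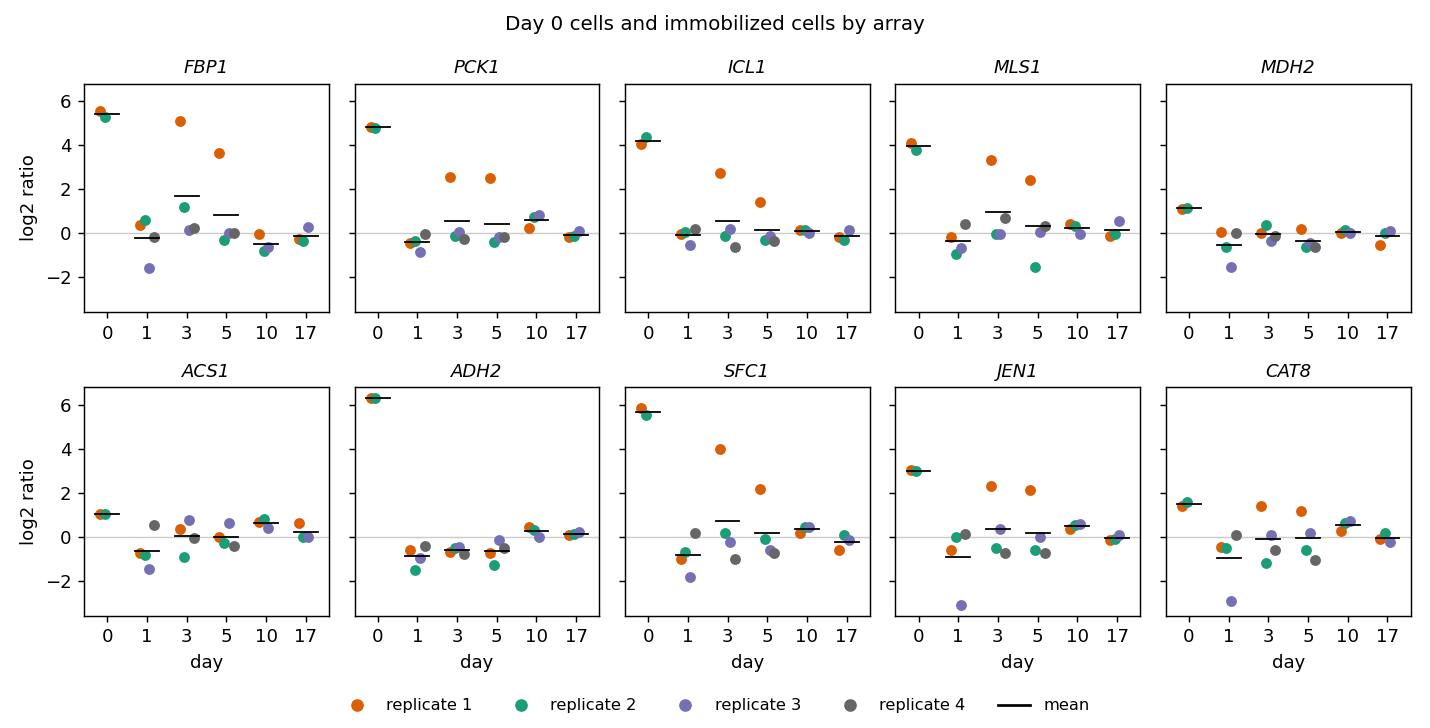
Log2 ratio of each gene on day 0 (2 arrays) and on bead days 1, 3, 5, 10 and 17 (points, coloured by replicate number; day on the horizontal axis, not to scale), with the mean of each day as a line. For every gene the day 0 arrays lie above all 4 day 1 arrays, and for 7 genes the day 3 replicate 1 array is the highest of the 18 bead arrays. Separation of day 0 from day 1 was not counted over all tested genes.

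Averaged over days 1 to 17, bead cells were higher than log-phase cells in 6 of the 10 genes and lower in 0. Of all tested genes 15.9% were called higher and 14.7% lower. MLS1 ran from a lowest of -1.55 through a median of 0.00 to a highest of 3.30 over the 18 bead arrays, against -2.94 and -3.24 in log phase. It rose 10.2-fold (3.35 ± 0.69, adjusted p = 0.000554). ACS1 ran from -1.46 through 0.00 to 0.81 in the beads, against -2.78 and -2.48 in log phase, and rose 6.40-fold (2.68 ± 0.37, adjusted p = 1.08e-05). No bead array of these genes reached down to the log-phase values.

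PCK1, whose bead arrays ran from -0.85 through -0.13 to 2.55, rose 4.08-fold over log phase (2.03 ± 0.57, adjusted p = 0.00617). MDH2, from -1.53 through -0.01 to 0.36, rose 3.55-fold (1.83 ± 0.31, adjusted p = 7.48e-05). JEN1, from -3.12 through 0.00 to 2.31, rose 3.77-fold (1.91 ± 0.72, adjusted p = 0.0325), and CAT8, from -2.92 through 0.00 to 1.39, rose 3.57-fold (1.84 ± 0.63, adjusted p = 0.0195). Bead and log-phase arrays lay apart for PCK1, ICL1, MLS1, MDH2 and ACS1 and overlapped for the other 5 genes. They lay apart, in either direction, for 6 of 24 regulators, 5 of 21 other glucose-repressed genes and 2 of 9 reversible glycolytic enzymes. This was not counted over all tested genes. PCK1 and JEN1 lost the call without either log-phase array. Without log phase replicate 1 CAT8 also lost it, at 0.79 (adjusted p = 0.502), while without log phase replicate 2 it was 2.88. Repeated quantile normalization ended the calls of PCK1 (1.20), MDH2 (0.93), JEN1 (1.07) and CAT8 (0.96).

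FBP1 (2.09 ± 0.92, adjusted p = 0.0638) and SFC1 (1.79 ± 0.83, adjusted p = 0.0787) missed the threshold with day 3 replicate 1 and day 5 replicate 1 included. Those arrays hold high values of these genes, and leaving them out was chosen after seeing the data. Without them the differences were 1.68 (adjusted p = 0.00265) and 1.44 (adjusted p = 0.0116) and both were called. Dropping arrays for their values lowers the spread, so these calls are no independent test. Array weights, planned beforehand and estimated from the same data, also called FBP1 (1.92, adjusted p = 0.00412) and SFC1 (1.55, adjusted p = 0.017). Of the 26 fits that left out 1 array, 4 called FBP1 and 1 called SFC1. ICL1 had a difference of 0.93 ± 0.55 (adjusted p = 0.168). ADH2 ran from -1.52 through -0.47 to 0.43 in the beads, against 0.01 and 1.15 in log phase. Its difference of -0.93 ± 0.27 had an adjusted p of 0.00801 but did not reach the fold minimum. With log phase replicate 1 left out it was -1.49 and was called lower. With the replicate number as a block FBP1 (2.66, adjusted p = 0.0147), SFC1 (2.21, adjusted p = 0.0363) and ADH2 (-1.01, adjusted p = 0.00918) were all called. Among the bead days, however, equal numbers paired arrays only between days 3 and 5, and pairing with log phase could not be checked.

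Among the wider lists 8 of 21 other glucose-repressed genes were higher in beads than in log phase and 0 lower, with CTA1 at 4.16 ± 0.64, POT1 at 3.79 ± 0.64 and POX1 at 3.65 ± 0.46. Of the carnitine shuttle 3 of 5 rose, CAT2 the most (2.91 ± 0.35), and of the GID list 4 of 10 rose and 0 fell. Of 24 regulators of glucose derepression 6 were higher in beads and 1 was lower. MIG3, a relative of the repressor gene MIG1, had the largest difference, 3.26. Its mean was -3.05 in log phase, against bead day means from -0.25 on day 1 to 1.18 on day 10. SIP4 (2.47 ± 0.42) and ADR1 (2.04 ± 0.51) were also higher and HXK2 (-2.53 ± 0.38) was lower. Of the 9 reversible glycolytic enzymes 0 rose and 0 fell.

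Bead cells were lower than stationary-phase cells in 8 of the 10 genes and higher in 0. Among all tested genes 11.8% were called higher and 14.4% lower, and the median difference of the 10 genes was -2.90. SFC1 was 24.0-fold lower (-4.59 ± 0.83, adjusted p = 0.000158), PCK1 17.7-fold (-4.15 ± 0.57, adjusted p = 8.46e-06), FBP1 14.1-fold (-3.82 ± 0.92, adjusted p = 0.00211) and MLS1 13.0-fold (-3.69 ± 0.69, adjusted p = 0.000232). ICL1 was 8.93-fold lower (-3.16 ± 0.55, adjusted p = 0.000108), CAT8 6.22-fold (-2.64 ± 0.63, adjusted p = 0.00195), JEN1 6.00-fold (-2.59 ± 0.72, adjusted p = 0.00635) and ADH2 2.72-fold (-1.44 ± 0.27, adjusted p = 0.000248). All 18 bead arrays lay below both stationary-phase arrays for PCK1, MLS1, MDH2, ADH2 and CAT8. In either direction the arrays lay apart for 15 of 21 other glucose-repressed genes, 11 of 24 regulators and 3 of 9 reversible glycolytic enzymes. This was not counted over all tested genes. FBP1 and JEN1 lost the call without stationary phase replicate 2, with adjusted p of 0.0721 and 0.118. Without stationary phase replicate 2 or replicate 1 the differences were -3.48 or -5.69 for SFC1, -3.18 or -4.46 for FBP1 and -2.29 or -4.03 for ICL1. JEN1 and CAT8 also lost it with repeated quantile normalization (adjusted p = 0.119 and 0.0695), and ADH2 when only days 10 and 17 were averaged (-0.89).

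MDH2 and ACS1 were not called here. MDH2 had a difference of -0.96 ± 0.31 (adjusted p = 0.0148), just short of the fold minimum, and ACS1 one of -0.62 ± 0.37 (interval -1.39 to 0.16, adjusted p = 0.189). ACS1 stood at 0.63 ± 0.21 on day 10 (SD, n = 3), against 0.66 ± 0.02 in stationary phase (SD, n = 2), with overlapping arrays. In the wider lists all 5 carnitine shuttle genes and 17 of 21 other glucose-repressed genes were lower in beads, with 0 higher, RGI2 at -7.14 ± 1.59 and ADY2 at -5.85 ± 0.84. Of the reversible glycolytic enzymes 3 of 9 were higher, ENO1 (1.70 ± 0.20), PGK1 (1.67 ± 0.24) and TDH1 (1.17 ± 0.13).

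Against the chemostat, bead cells differed in 3 of the 10 genes. Of all tested genes 9.55% were called higher and 9.94% lower. ACS1 was 3.20-fold higher in beads (1.68 ± 0.37, adjusted p = 0.00192) and MLS1 3.80-fold higher (1.93 ± 0.69, adjusted p = 0.0369). ADH2 was 2.42-fold lower (-1.27 ± 0.27, adjusted p = 0.00148), and all 18 bead arrays lay below both chemostat arrays of 0.99 and 0.86. FBP1 differed by 0.77 (adjusted p = 0.556), ICL1 by 0.62 (adjusted p = 0.41), JEN1 by 0.57 (adjusted p = 0.578), CAT8 by 0.21 (adjusted p = 0.826), SFC1 by 0.16 (adjusted p = 0.902) and MDH2 by -0.36 (adjusted p = 0.382). PCK1 had -0.92 (interval -2.12 to 0.27, adjusted p = 0.227). Without day 3 replicate 1 and day 5 replicate 1 it was called lower at -1.19 (adjusted p = 0.000407). Those arrays hold its highest bead values and were left out after seeing the data, so this call is no independent test. Array weights, planned beforehand and estimated from the same data, kept all arrays and also called PCK1 lower (-1.06, adjusted p = 0.000339). MLS1 lost the call without either chemostat array (adjusted p of 0.105 and 0.34), ACS1 without chemostat replicate 2 (adjusted p = 0.0679) and ADH2 without chemostat replicate 1 (adjusted p = 0.0552). Repeated quantile normalization ended the calls of MLS1 (adjusted p = 0.0816) and ACS1 (adjusted p = 0.0527), and days 10 and 17 alone those of MLS1 (1.85) and ADH2 (-0.73). The 3 comparisons of bead cells share the same bead arrays.

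Over time in the beads 0 of the 10 genes were called between day 17 and day 1 by limma, and 2 had an unadjusted p under 0.05. Among all 5445 tested genes 1099 had an unadjusted p under 0.05, a like share. Calls over all tested genes came to 0.257% higher and 0.0367% lower. ADH2 had log2 ratios of 0.08, 0.14 and 0.22 on day 17, against -0.61, -1.52, -0.97 and -0.44 on day 1. All its day 17 arrays were above all its day 1 arrays, and the difference was 1.03 ± 0.28 (adjusted p = 0.083). ACS1 had 0.62, 0.00 and -0.02 on day 17, against -0.72, -0.83, -1.46 and 0.52 on day 1 (0.82, interval 0.03 to 1.61, adjusted p = 0.231). For the other 8 genes the arrays of the days overlapped, with adjusted p of 0.437 or more and differences between -0.03 and 0.90. Without day 1 replicate 4 both ADH2 (1.18, adjusted p = 0.00788) and ACS1 (1.20, adjusted p = 0.0168) were called higher on day 17, and ADH2 also with repeated quantile normalization (1.08, adjusted p = 0.0272).

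Across the 5 bead days together limma's F-test called 1 of the 10 genes, against 20.9% of all tested genes. This was ADH2 (1.13 between the highest and lowest day mean, adjusted p = 0.0119). It averaged -0.88 ± 0.48 on day 1, -0.60 ± 0.15 on day 3, -0.66 ± 0.47 on day 5 (SD, n = 4 each), 0.25 ± 0.23 on day 10 and 0.15 ± 0.07 on day 17 (SD, n = 3 each). Every day 10 and day 17 array of ADH2 was above every array of days 1 to 5. Its call was lost without day 1 replicate 2 (0.92) or day 10 replicate 2 (adjusted p = 0.0582), and with array weights (0.94). The day means of FBP1 spanned 2.18 (adjusted p = 0.252) and those of ACS1 1.25 (adjusted p = 0.122). ACS2, the relative of ACS1, spanned 2.95 (adjusted p = 0.000243) and was lowest on day 10, at -2.34 ± 0.87, against 0.61 ± 0.46 on day 1.

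Replicate arrays of the early bead days spread widely in these genes. The median SD of the 10 genes was 0.780 on day 1, 1.36 on day 3 and 1.14 on day 5, against 0.482, 0.337 and 0.390 over all tested genes on the same days. On days 10 and 17 it was 0.220 and 0.294, against 0.244 and 0.254 over all tested genes. The spread of days 3 and 5 came mostly from 1 array each. FBP1 had log2 ratios of 5.08, 1.20, 0.16 and 0.24 on day 3 and 3.64, -0.31, -0.01 and 0.01 on day 5. SFC1 had 3.98, 0.20, -0.24 and -1.01 on day 3 and 2.18, -0.09, -0.60 and -0.73 on day 5. Replicate 1 was the high array on both days.

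Day 3 replicate 1 held the highest of the 18 bead values for FBP1, PCK1, ICL1, MLS1, SFC1, JEN1 and CAT8. There FBP1 (5.08), ICL1 (2.73), SFC1 (3.98) and JEN1 (2.31) stood inside the range spanned by the stationary-phase and day 0 arrays, CAT8 (1.39) at its lower edge, and PCK1 (2.55) and MLS1 (3.30) below it. MDH2, ACS1 and ADH2 peaked on other bead arrays, with 0.02, 0.35 and -0.68 on day 3 replicate 1. With day 3 replicate 1 and day 5 replicate 1 set aside, the highest remaining bead value was 1.20 for FBP1, 0.84 for PCK1, 0.18 for ICL1, 0.67 for MLS1, 0.44 for SFC1, 0.57 for JEN1 and 0.73 for CAT8. Day 3 replicate 1 was the highest array of its day for 7 of the 10 genes and for 30.7% of all tested genes. Day 5 replicate 1 was highest for 8 of the 10 genes and for 25.3% of all tested genes.

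On these arrays the median log2 ratio of the 10 genes was 2.43 on day 3 replicate 1 and 1.76 on day 5 replicate 1. The median of the carnitine shuttle genes was 1.11 and 0.94 there, that of the other glucose-repressed genes 0.64 and 0.56, and that of the reversible glycolytic enzymes -0.67 and -0.68. The difference between 3' and 5' probe sets of 6 control genes, a sign of RNA integrity, was -0.07 on day 3 replicate 1 and 0.07 on day 5 replicate 1, within the range of -0.34 to 0.55 over the bead arrays. Deviations from the day means correlated between same-numbered arrays of days 3 and 5, with r of 0.548 to 0.864 across genes, which are not independent replicates. The main fit took all arrays as independent, so SE and adjusted p of the bead comparisons and of the F-test ignore this pairing.

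Day 1 replicate 3 lay on the other side. It was the lowest array of its day for 8 of the 10 genes and for 31.5% of all tested genes. JEN1 had log2 ratios of -0.61, 0.00, -3.12 and 0.15 on day 1, and CAT8 had -0.46, -0.49, -2.92 and 0.09. Replicate 3 of both genes was within or below the range of the log-phase arrays, while the other replicates were not. The same array had the highest 3' to 5' difference of all bead arrays, 0.55, and its part in these values was not tested.

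**Figure D4:**
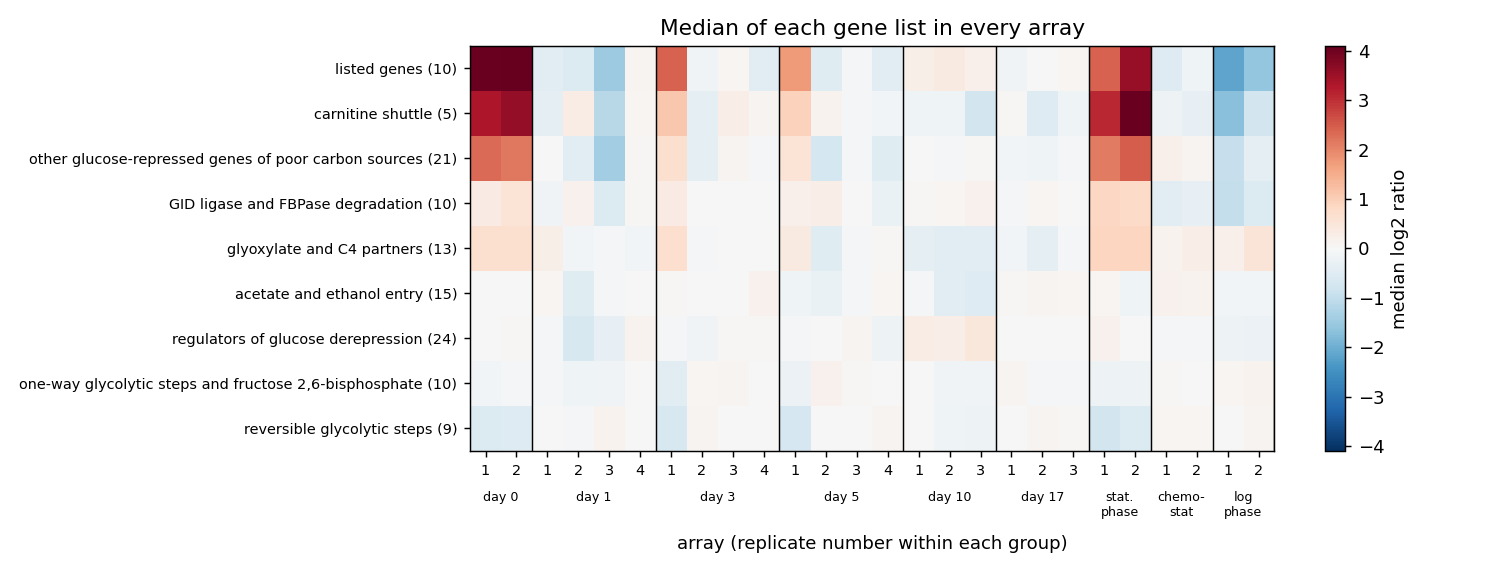
Median log2 ratio of the 10 listed genes and of 8 lists of related genes (rows, with the number of genes measured) on each of the 26 arrays (columns). The listed genes, the carnitine shuttle and the other glucose-repressed genes are red on day 0, in stationary phase and on replicate 1 of days 3 and 5, where the reversible glycolytic steps are blue.

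Ordered by group mean, day 0 was highest for 8 of the genes and stationary phase for MLS1 and CAT8. FBP1 averaged 5.40 ± 0.19 on day 0 and 4.15 ± 0.91 in stationary phase, its arrays apart, followed by the bead days and the chemostat between 1.67 and -0.51 with overlapping arrays, and by log phase at -1.76 ± 0.25. The chemostat mean stood above every bead day mean for PCK1 (1.14 ± 0.04), MDH2 (0.15 ± 0.29) and ADH2 (0.92 ± 0.09). Only for PCK1 did the chemostat arrays lie apart from those of both groups next in order. Even so, PCK1 was higher on day 3 replicate 1 (2.55) and day 5 replicate 1 (2.48). MLS1 averaged 3.96 ± 0.48 in stationary phase and 3.94 ± 0.20 on day 0, overlapping, with the chemostat at -1.66 ± 0.62 below all bead days and log phase lowest at -3.09 ± 0.21. ICL1 averaged 4.20 ± 0.25 on day 0 and 3.28 ± 1.23 in stationary phase, also overlapping.

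For SFC1 and JEN1 the day 0 and stationary-phase arrays overlapped at the top, SFC1 averaging 5.69 ± 0.22 on day 0 and 4.63 ± 1.56 in stationary phase, and JEN1 3.00 ± 0.03 on day 0 and 2.60 ± 0.59 in stationary phase. MDH2 and ACS1 spanned a smaller range, their highest group means being 1.13 ± 0.04 and 1.05 ± 0.01 on day 0. CAT8 averaged 2.52 ± 0.17 in stationary phase, 1.49 ± 0.13 on day 0 and 0.54 ± 0.26 on day 10, each apart from the next, and the rest overlapped down to -1.96 ± 1.48 in log phase. ADH2 was the gene for which log phase (0.58 ± 0.80) was not the lowest group: its lowest means were those of days 1, 3 and 5.

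The 10 genes varied together to different degrees. Over the 9 group means the 36 pairs without ADH2 had a median Pearson r of 0.902, and the 9 pairs with ADH2 one of 0.662. Over the 18 bead arrays, which share a reactor type and an extraction method, the medians were 0.736 and 0.173. ADH2 was not the only gene with weak pairs there. ACS1 ran from 0.07 with FBP1 to 0.76 with CAT8, and MDH2 from 0.37 with ICL1 to 0.67 with JEN1. Day 3 replicate 1 and day 5 replicate 1 were included, and their part in r was not tested. All these r are descriptions, since the groups share arrays and normalization.

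Among 2930 genes whose group means varied with an SD of at least 0.5, those closest to the median profile of the 10 by Pearson r over the 9 group means were CIT3 (0.995), a mitochondrial citrate synthase gene, BOP2 (0.994) and the listed SFC1 (0.991). FBP1 was closest to IDP2 (0.992), PCK1 and ICL1 to SFC1 (0.979 and 0.987), and SFC1 to CIT3 (0.992). MLS1 was closest to ACH1 (0.988), a CoA transferase gene of acetate metabolism, with FOX2 of fatty acid oxidation next (0.986). JEN1 was closest to BOP2 (0.995) and CRC1 (0.984), CAT8 to NGL3 (0.985), ACS1 to SHC1 (0.992) and MDH2 to YJR154W (0.974). ADH2 had the weakest nearest neighbour, SMM1 at 0.962.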

How the data were processed

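Transcript levels were measured on 26 Affymetrix yeast arrays in 9 groups. Signals were summarised with RMA, per the submitters' processing notes, and the sources used here do not give its version. What the authors deposited is a linear ratio. Probe sets have medians of 0.9905 to 1.047 across arrays, so the ratio sets a probe set against its own median and the signal level is lost. The number of arrays limits the precision.

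The deposited ratios were put on the log2 scale. The platform annotation gave exactly 1 yeast gene for 5498 of 10928 probe sets, 5449 genes in all. For 47 genes with several, the one with the highest mean was kept, and 4 genes with missing values were left out. A model of 9 group means was fitted with limma 3.58.1 in R 4.3.3 (lmFit and eBayes, two-sided, 17 residual and 4.02 prior degrees of freedom). The bead mean weights the 5 days equally. Genes with a Benjamini-Hochberg adjusted p under 0.05 over 5445 genes and an absolute log2 difference of at least 1 were called, and limma's F-test with at least 1 between day means was used across bead days. The procedure was tested on simulated data. Python 3.11.15 with matplotlib 3.10.9 drew the figures.

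The members, related lists and tests were chosen with earlier results of these data known. All 10 members are named in every comparison, with up to 3 called genes of the largest absolute difference per related list, relatives or opposing enzymes of the members, and the genes of most similar profile. TDH2, GID10, GID11 and SPG1 of the related lists had no usable value. Equal replicate numbers paired arrays of days 3 and 5, as every same-numbered pair correlated in its deviations (0.548 to 0.864), but of no other bead days. In groups of 2 arrays the deviations mirror each other, so pairing could not be checked for day 0 and the free cells. No replicate block was used in the main fit. Alternatives were repeated quantile normalization, a shift of arrays to 1 median, array weights, a trended and robust prior, averaged probe sets, no fold minimum, the replicate block, only the groups compared, other bead days or weights, and leaving out each array. Leaving out day 3 replicate 1 with day 5 replicate 1, these with day 1 replicate 3, and crossed day 0 numbers were added after seeing the data.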

Additional observations from a re-analysis of the deposited data

Results flagged for a closer look

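Each of the 10 listed genes was put to Dixon's test on days 1, 3 and 5, the days with 4 arrays. In 4 of these groups 1 array stood apart from the other 3. Chance passes the 95% critical value used in about 1 group in 20. PCK1 had a log2 ratio of 2.55 on day 3 replicate 1. On day 5 replicate 1 FBP1 had 3.64, PCK1 2.48 and ICL1 1.41. These 3 genes varied together over the bead arrays (Pearson r of 0.82 to 0.90), so they are not separate cases. Of all 5445 tested genes 1.01% stood apart as high on day 3 replicate 1 and 0.735% on day 5 replicate 1. The remaining arrays of those days lay between -0.27 and 0.05 for PCK1 on day 3, and on day 5 between -0.31 and 0.01 for FBP1, -0.42 and -0.17 for PCK1 and -0.35 and -0.13 for ICL1.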

How the results depend on the processing

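Of 4060 single-gene results under alternatives 3955 kept the call or its absence, 71 lost a call, 34 gained one and 0 reversed. Most of them leave out 1 array, often of neither group compared, and averaging probe sets cannot alter genes with 1 probe set. The total is therefore no measure of robustness. Repeated quantile normalization, which gives every array the same spread of ratios (SD of log2 0.380 to 1.14 as deposited), lowered the called members from 2 to 0 for chemostat against log phase, from 8 to 2 for stationary phase against chemostat, from 6 to 2 for beads against log phase and from 3 to 1 for beads against chemostat, and gave 1 in place of 0 for day 17 against day 1 (ADH2). It also called fewer genes of all kinds, such as 623 against 2421 for stationary against log phase, 657 against 1980 for day 0 against log phase and 516 against 1662 for beads against log phase. For chemostat against log phase a trended and robust prior called 1 member and array weights 5. With only the groups compared, day 0 against stationary phase called 3 members. With bead days 10 and 17 alone, beads against chemostat called 1. Without day 3 replicate 1 and day 5 replicate 1, chosen after seeing the data, 2 members were called across bead days (PCK1 joined ADH2), and with day 1 replicate 3 also left out 2 were called for day 0 against stationary phase.

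Leaving out each array in turn called 9 to 10 members for stationary against log phase, 0 to 2 for chemostat against log phase, 5 to 8 for stationary phase against chemostat, 9 to 10 for day 0 against log phase and 1 in every fit for day 0 against stationary phase. It called 4 to 8, 6 to 8 and 1 to 3 for beads against log phase, stationary phase and chemostat, 8 to 10 for day 1 against day 0, 0 to 2 for day 17 against day 1 and 0 to 2 across bead days. Where this left 1 array in a group, its spread was taken from the other groups.

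With the replicate block, beads against log phase called 9 members in place of 6, adding FBP1 (2.66), SFC1 (2.21) and ADH2 (-1.01), and day 17 against day 1 called 1 in place of 0 (ADH2, 1.08). It changed no other call of the 10 genes. With the day 0 numbers crossed, since same-numbered day 0 and log-phase arrays correlated at -0.177, the replicate block called 10 members for day 0 against log phase, as without it. A filter on dim probe sets, though planned, was not run, because ratios hold no signal over background.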
